A study of Mus musculus with 16 samples.

Results

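The proteasome genes described here are the mouse genes whose symbols run from Psma1 to Psmg4, namely the subunits of the proteasome, its activators, its inhibitor and its assembly chaperones. The inducible catalytic subunits of the immunoproteasome (Psmb8, Psmb9 and Psmb10), the pseudogenes and genes with fewer than 10 counts over all samples were left out. The rule found 46 genes among the 55423 of the deposited count table, of which 28676 had a count above 0. By the role of the product, 8 genes encode subunits of the alpha ring, 7 of the beta ring, 6 ATPases and 11 non-ATPase subunits of the regulatory particle, 5 activators and 1 inhibitor, while 3 encode chaperones of the regulatory particle and 4 chaperones of the core. Psmc3ip also matches the rule by its symbol, although its product acts in meiotic recombination and is not a proteasome subunit.

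RNA was sequenced from sub-capsular sinus macrophages (SSMs) and medullary sinus macrophages (MSMs), sorted from tumor-draining (tdLN) and non-draining (ndLN) lymph nodes. All mice were C57B/6 males that carried MOC2, a squamous cell carcinoma line, implanted intradermally in the flank 2 weeks earlier as 500000 cells. SSMs were sorted as CD11c- and MSMs as CD11c+ cells, both within CD45+ CD3- B220- Ly6G- CD11b+ CD169+ cells. Each of the 4 groups (SSMs from ndLN, SSMs from tdLN, MSMs from ndLN, MSMs from tdLN) holds 2 libraries, numbered 1 and 2 after the node samples of the labels and taken here as pools. The number of library 1 of SSMs from tdLN was inferred, since its label bears none. A pool joined the nodes of 2 mice, 2 nodes for tdLN and 6 for ndLN, the latter being the inguinal, axillary and brachial nodes of the opposite side, and gave about 10000 sorted cells. Nodes from tumor-free mice were not among the samples, so ndLN stands for a distant node of a tumor-bearing mouse. The tumor was implanted near the inguinal node. Between tdLN and ndLN, drainage thus cannot be told apart from node site or from the number of nodes pooled.

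The proteasome degrades proteins tagged with ubiquitin, and the peptides it leaves are a source of those shown on MHC class I. Its 20S core is a stack of outer alpha rings, which gate the entry, and inner beta rings, in which Psmb5, Psmb6 and Psmb7 carry the chymotrypsin-like, caspase-like and trypsin-like activities. The 19S regulatory particle recognizes and unfolds tagged proteins with a ring of ATPases, the PA28 and PA200 activators open the gate without using ubiquitin, and in cells exposed to interferon-gamma the PA28 alpha and beta genes rise together with the immunoproteasome subunits.

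The promoters of 3 of these genes are shown because they carry, at the start of a gene that the results below describe, the letters of an element linked to a transcription factor of this pathway. They cover 250 bases before and 30 bases after the annotated start, on the gene's own strand, from RefSeq on GRCm38.p6. Psme1 (PA28 alpha) lies at chr14:55578244-55578523 on the plus strand, Psmb5 at chr14:54617966-54618245 on the minus strand and Psmb6 at chr11:70525107-70525386 on the plus strand. Capitals mark, in Psme1, the core of an interferon-stimulated response element read from the other strand, beginning at base 260 of the stretch shown, and, in Psmb5 and Psmb6, the core of an antioxidant response element, beginning at base 204 and base 242. The element of Psme1 thus lies past the RefSeq start. GENCODE places the start of Psme1 at base 55578123, so by that annotation the whole stretch lies within the gene.
Psme1: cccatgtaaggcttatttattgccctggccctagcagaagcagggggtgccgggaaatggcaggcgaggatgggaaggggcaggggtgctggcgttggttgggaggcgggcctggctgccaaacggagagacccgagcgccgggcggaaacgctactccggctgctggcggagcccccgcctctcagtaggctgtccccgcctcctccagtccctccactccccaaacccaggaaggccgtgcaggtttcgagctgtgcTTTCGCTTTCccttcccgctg
Psmb5: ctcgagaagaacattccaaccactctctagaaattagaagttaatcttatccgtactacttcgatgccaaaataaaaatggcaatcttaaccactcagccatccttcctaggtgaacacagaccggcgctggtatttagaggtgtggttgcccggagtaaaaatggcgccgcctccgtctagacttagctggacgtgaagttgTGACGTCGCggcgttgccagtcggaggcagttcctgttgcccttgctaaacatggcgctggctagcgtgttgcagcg
Psmb6: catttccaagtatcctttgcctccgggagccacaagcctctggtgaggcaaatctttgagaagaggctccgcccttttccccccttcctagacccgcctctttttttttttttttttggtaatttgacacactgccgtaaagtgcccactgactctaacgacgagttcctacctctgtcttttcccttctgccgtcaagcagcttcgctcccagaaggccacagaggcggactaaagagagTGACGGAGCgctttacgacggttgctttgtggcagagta
Motifs were searched on both strands of the full windows, which extend 50 bases past the start, and 38 of the 46 genes had such a window. The antioxidant response element core, TGACNNNGC, was found for 6 of the 38 genes or 15.8% (Psmb5, Psmb6, Psmc6, Psmd9, Psmd12 and Psme4), against 14.0% of all 27025 symbols with a window and 17.3% of the genes with a mean above 100 reads that had a window. The interferon-stimulated response element core, which reads GAAA, any 2 bases and GAAA, was found for 5 of the 38 genes or 13.2% (Psme1, Psmb3, Psmd4, Psmd9 and Psmg4), against 3.99% of all symbols with a window and 4.20% of the genes with a mean above 100 reads. The CCAAT box was found for 13 of the 38 genes or 34.2%, against 41.1% of all symbols with a window and 42.7% of the genes with a mean above 100 reads. The interferon element was added to the search after the values of Psme1 had been seen, and a match of letters is no evidence that a factor was bound.

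The 16 samples are 8 libraries sequenced on 2 lanes each, whose counts agreed within sampling noise (chi-square per degree of freedom between 0.955 and 1.02) and were summed. The libraries held between 42972328 and 48130352 reads, of which the 46 genes took between 0.556% and 0.827%. Levels are given as CPM, the counts scaled to the library size with TMM factors, and 3 counts correspond to 0.0623 to 0.0698 CPM, so that depth limits only the rarest of these genes. All 9 genes of the sinus macrophage list passed the count filter, although Mertk and Cd163 lay at 0.465 CPM or below in SSMs from ndLN. The summed level of the 9 genes was 5925 to 9156 CPM in SSMs from ndLN, 15380 to 22460 CPM in SSMs from tdLN and 4670 to 5290 CPM in MSMs. Most of it came from Lyz2, the gene of lysozyme. The other 8 genes summed to 881 to 1216 CPM in SSMs from ndLN, 2448 to 3151 CPM in SSMs from tdLN and 628 to 946 CPM in MSMs. In ndLN 6 of the 9 genes were higher in both SSM libraries than in both MSM libraries while 3 (Cd68, Mertk and Cd163) were lower. Siglec1, which encodes the CD169 used in the sort, lay at 8.47 CPM or above in SSMs and at 5.96 CPM or below in MSMs. The 11 T cell genes summed to 2308 to 2535 CPM in SSMs from ndLN, 1018 to 1170 CPM in SSMs from tdLN and 492 to 824 CPM in MSMs, although the gate excluded CD3+ cells. Cd8a, which subsets of dendritic cells also express, had 357 to 605 CPM in MSMs, against 10.0 to 25.7 CPM in SSMs. Without it the other 10 genes summed to 2282 to 2512 CPM, 1008 to 1157 CPM and 95.1 to 292 CPM in the same order. The 9 dendritic cell genes summed to 1055 to 2271 CPM in SSMs and 4533 to 4911 CPM in MSMs. In such bulk samples, fewer cells of a type and less RNA per cell cannot be told apart.

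Per kb of the principal transcript, the core genes stood highest by their median and the chaperones lowest over the 8 libraries. The place of the core depended on the length used. Per kb of all exons of a gene joined, the regulatory ATPases had a higher median than either ring. The median level was 134 CPM per kb in the beta ring and 112 CPM per kb in the alpha ring, against 95.7 CPM per kb for the regulatory ATPases and 63.4 CPM per kb for the non-ATPase subunits. The 4 chaperones of the core (Psmg1 to Psmg4) had a median of 18.9 CPM per kb and the 3 of the regulatory particle (Psmd5, Psmd9 and Psmd10) one of 10.4 CPM per kb. The widest range was that of the activators, from 5.02 CPM per kb for Psme4 (PA200) to 641 CPM per kb for Psme2 (PA28 beta), the highest level of all 46 genes. Psma8, the alpha subunit of the testis, had the lowest level, 1.19 CPM per kb, while Psma7 reached 376 CPM per kb in the same ring.

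**Figure D1:**
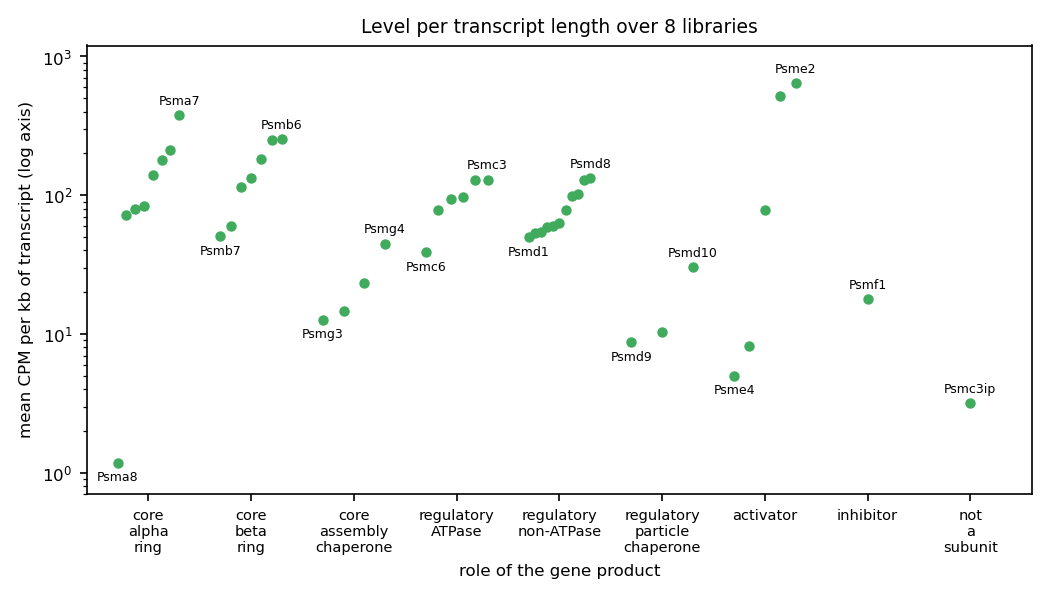
Mean level of each of the 46 genes over the 8 libraries, in CPM per kb of the principal transcript on a log axis, by the role of the product; each point is 1 gene, and the lowest and highest of each role are named. Psma8 lies apart from its ring at 1.19 CPM per kb, and the activators spread from 5.02 to 641 CPM per kb.

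Summed over their genes, the core, the regulatory particle and the activators were lowest in SSMs from ndLN and highest in MSMs from tdLN. The 15 core genes summed to 1925 and 1673 CPM in SSMs from ndLN, 2403 and 2547 CPM in SSMs from tdLN, 2697 and 2717 CPM in MSMs from ndLN and 2989 and 3366 CPM in MSMs from tdLN. In means this was 1799 ± 178, 2475 ± 102, 2707 ± 13.9 and 3178 ± 267 CPM (SD, n = 2), and no 2 of the groups overlapped. The 17 genes of the regulatory particle followed with 2038 ± 53.6, 2535 ± 102, 2719 ± 194 and 2978 ± 121 CPM (SD, n = 2) in the same order, where SSMs from tdLN, with 2463 and 2607 CPM, overlapped with MSMs from ndLN, with 2582 and 2856 CPM. The 5 activators summed to 869 ± 13.0 CPM in SSMs from ndLN, 1145 ± 97.7 CPM in SSMs from tdLN, 1702 ± 115 CPM in MSMs from ndLN and 2045 ± 240 CPM in MSMs from tdLN (SD, n = 2), so that both SSM groups lay below both MSM groups. The ratio of SSMs to MSMs in ndLN was thus 0.665 for the core, 0.750 for the regulatory particle and 0.511 for the activators, whereas that of tdLN to ndLN in SSMs was 1.38, 1.24 and 1.32. Single genes followed the same order, with 42 of the 46 lowest in SSMs from ndLN and 36 highest in MSMs from tdLN, against 36.1% and 25.8% of the 9996 genes with a mean above 100 reads.

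**Figure D2:**
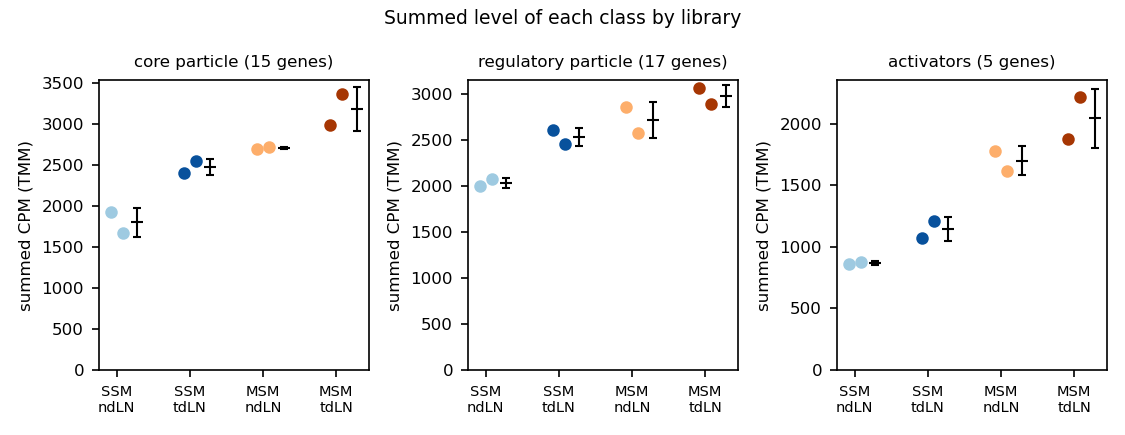
Summed level of the core (15 genes), the regulatory particle (17 genes) and the activators (5 genes) in CPM after TMM scaling; each coloured point is 1 library, 2 per group, and the black bar is the mean ± SD. In each class both SSM libraries from ndLN lie below all other libraries, and the activators show the widest gap between SSMs and MSMs.

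In ndLN, the proteasome genes were lower in SSMs than in MSMs nearly throughout, by a small amount each. The log2 fold change was negative for 43 of the 46 genes (34 without TMM factors), with a median of -0.50, while the median of all 21085 genes tested was 0.09. Over the genes with a mean above 100 reads the median was -0.06, and 46.9% were positive. The 3 proteasome genes with a positive value were Psmd9 (0.17), Psmf1 (0.16) and Psmd5 (0.02). In 40 genes both SSM libraries lay below both MSM libraries, against 26.5% of all genes tested and 39.3% of those with a mean above 100 reads. By edgeR's quasi-likelihood test, at an adjusted p-value (Benjamini-Hochberg) under 0.01 and a mean above 100 reads per lane, 6 genes fell and 0 rose. The test called 6.06% of all genes lower, or 12.8% of those with a mean above 100 reads, and the 6 are 13.6% of the 44 proteasome genes above that mean, a share near the background. The 6 calls became 1 without library 1 of MSMs from ndLN and 2 without library 2 of it, library 2 of SSMs from ndLN or either library of SSMs from tdLN, while Psme1 stayed called each time. They became 0 when only the groups compared were fitted and 11 without the pool term. At an adjusted p-value under 0.05, 19 genes were lower, or 43.2% of the 44, against 9.77% of all genes tested and 20.6% of those above the mean.

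PA28, the activator linked to interferon, held the largest difference among those that passed the test. Psme1 (chr14:55578123-55581529, plus strand), whose RefSeq promoter window is shown above, measured 304 and 289 CPM in SSMs from ndLN, 386 and 450 CPM in SSMs from tdLN, 782 and 724 CPM in MSMs from ndLN and 752 and 931 CPM in MSMs from tdLN. All 4 SSM libraries lay below all 4 MSM libraries. Its log2 fold change between SSMs and MSMs was -1.35 ± 0.14 (SE) in ndLN, with an adjusted p of 4.99e-04 by edgeR, and -1.01 ± 0.14 in tdLN, with an adjusted p of 0.00249. Psme2 (chr14:55587441-55591113, minus strand), whose product forms the PA28 ring with that of Psme1, measured 351 and 363 CPM in SSMs from ndLN, 462 and 550 CPM in SSMs from tdLN, 709 and 627 CPM in MSMs from ndLN and 851 and 1018 CPM in MSMs from tdLN. Here too no SSM library reached an MSM library. The log2 fold change of Psme2 was -0.91 ± 0.14 (SE) in ndLN and -0.89 ± 0.14 in tdLN, with adjusted p-values by edgeR of 0.00280 and 0.00418. Other genes also hold 28.3% of the 50-base windows cut from Psme2 transcripts. Part of its reads could thus have been assigned elsewhere or left out. These 2 genes were the only ones of the 46 called in tdLN. Leaving out any 1 of the 4 libraries from tdLN ended both calls, with adjusted p-values by edgeR between 0.0127 and 0.0872.

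The other activators were not called between SSMs and MSMs in either node. Psme2b (chr11:48945354-48946190, minus strand), a copy of Psme2 at another locus that shares 69.3% of its windows with other genes and is therefore uncertain, measured 5.43 and 4.57 CPM in SSMs from ndLN, 7.87 and 9.54 CPM in SSMs from tdLN, 6.02 and 5.13 CPM in MSMs from ndLN and 7.10 and 9.14 CPM in MSMs from tdLN. Its level was higher in tdLN than in ndLN in all libraries, and SSMs overlapped with MSMs. Psme3 (PA28 gamma, the nuclear form) measured 173 and 196 CPM in SSMs from ndLN, 182 and 167 CPM in SSMs from tdLN, 260 and 226 CPM in MSMs from ndLN and 237 and 220 CPM in MSMs from tdLN, all SSM libraries being below all MSM libraries and the nodes overlapping. Its log2 fold change between SSMs and MSMs was -0.39 ± 0.14 (SE) in ndLN, with an adjusted p of 0.0863 by edgeR. Over both nodes it was -0.39 ± 0.10, with an adjusted p of 0.0213 by edgeR. Psme4 (PA200) measured 26.7 and 26.2 CPM in SSMs from ndLN, 39.2 and 38.5 CPM in SSMs from tdLN, 26.2 and 38.1 CPM in MSMs from ndLN and 28.5 and 37.1 CPM in MSMs from tdLN. In MSMs the libraries of Psme4 split by pool rather than by node, and its log2 fold change between nodes was 0.55 ± 0.20 (SE) in SSMs and 0.03 ± 0.20 in MSMs, with an adjusted p for the interaction of 0.551 by edgeR.

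The inhibitor Psmf1 (PI31), which binds the core, did not share the order of the sums. It measured 55.0 and 50.0 CPM in SSMs from ndLN, 38.3 and 43.1 CPM in SSMs from tdLN, 47.5 and 46.4 CPM in MSMs from ndLN and 47.4 and 42.3 CPM in MSMs from tdLN. It was the 1 gene of the 46 for which both SSM libraries from tdLN lay below both from ndLN, with a log2 fold change of -0.36 ± 0.16 (SE) and an adjusted p of 0.232 by edgeR, so the difference did not pass the test.

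**Figure D3:**
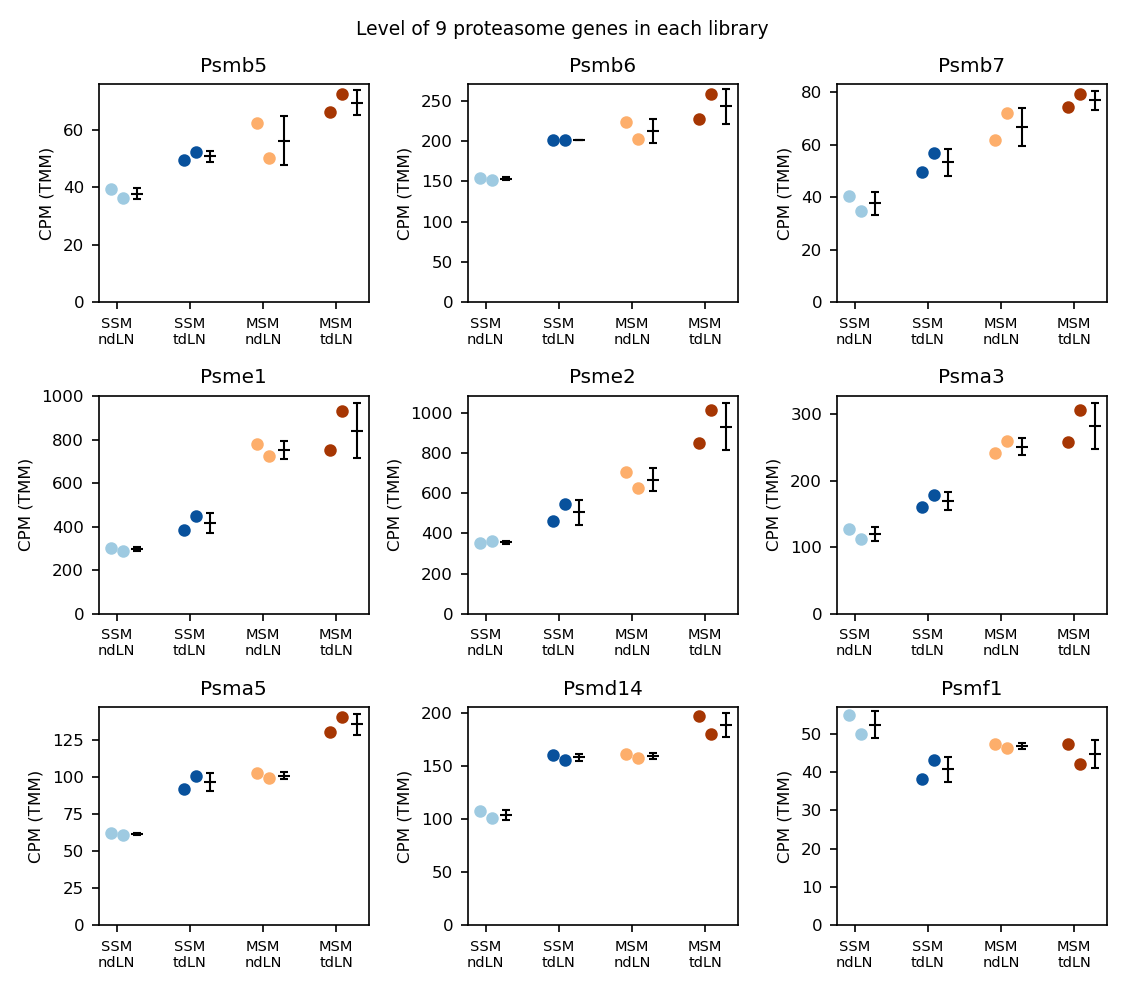
Level of 9 genes in CPM after TMM scaling, with the axis starting at 0; each coloured point is 1 library, 2 per group, and the black bar is the mean ± SD. In Psme1, Psme2 and Psma3 all SSM libraries lie below all MSM libraries, in Psmd14 both SSM libraries from ndLN (101 and 107 CPM) lie apart from the other groups, and Psmf1 is highest in SSMs from ndLN.

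Among the core genes in ndLN, 3 of the 8 alpha subunits fell and 0 of the 7 beta subunits did so, while at an adjusted p-value under 0.05 it was 5 of each. Psma3 measured 127 and 112 CPM in SSMs from ndLN, 160 and 179 CPM in SSMs from tdLN, 242 and 260 CPM in MSMs from ndLN and 258 and 307 CPM in MSMs from tdLN. Psma1 measured 173 and 144 CPM in SSMs from ndLN, 237 and 231 CPM in SSMs from tdLN, 294 and 313 CPM in MSMs from ndLN and 317 and 338 CPM in MSMs from tdLN. Both of these alpha ring genes were lower in every SSM library than in every MSM library. Their log2 fold changes in ndLN were -1.07 ± 0.15 (SE) for Psma3 and -0.94 ± 0.14 for Psma1, with adjusted p-values by edgeR of 0.00160 and 0.00223. Psma5, also of the alpha ring, measured 62.3 and 61.2 CPM in SSMs from ndLN, 92.4 and 101 CPM in SSMs from tdLN, 103 and 99.4 CPM in MSMs from ndLN and 131 and 141 CPM in MSMs from tdLN, so that SSMs from tdLN overlapped with MSMs from ndLN. Its log2 fold change in ndLN was -0.71 ± 0.14 (SE), with an adjusted p of 0.00812 by edgeR, and 50.0% of its windows are shared with other genes. The testis subunit Psma8 lay between 0.413 and 1.79 CPM in SSMs and between 1.85 and 3.54 CPM in MSMs, a mean below 100 reads that kept it out of the calls.

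The 3 catalytic subunits stood in the same order of groups without a call in either node. Psmb5, whose promoter is shown above, measured 39.3 and 36.4 CPM in SSMs from ndLN, 49.4 and 52.2 CPM in SSMs from tdLN, 62.3 and 50.2 CPM in MSMs from ndLN and 66.4 and 72.7 CPM in MSMs from tdLN. Psmb6, the other catalytic subunit whose promoter is shown, measured 154 and 152 CPM in SSMs from ndLN, 202 and 202 CPM in SSMs from tdLN, 223 and 203 CPM in MSMs from ndLN and 228 and 258 CPM in MSMs from tdLN. Psmb7 measured 40.6 and 34.6 CPM in SSMs from ndLN, 49.7 and 56.8 CPM in SSMs from tdLN, 61.7 and 72.0 CPM in MSMs from ndLN and 74.3 and 79.5 CPM in MSMs from tdLN. Within each node the SSM and MSM libraries of these 3 genes did not overlap, nor did the nodes within each subset. The log2 fold changes between SSMs and MSMs in ndLN were -0.57 ± 0.17 (SE) for Psmb5, -0.48 ± 0.13 for Psmb6 and -0.82 ± 0.17 for Psmb7, with adjusted p-values by edgeR of 0.0488, 0.0371 and 0.0109. Of the windows of Psmb5, 54.1% are shared with other genes, which leaves its level uncertain.

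In the regulatory particle the median log2 fold change between SSMs and MSMs in ndLN was -0.40 for the 6 ATPases and -0.52 for the 11 non-ATPase subunits, beside -0.80 for the alpha ring and -0.54 for the beta ring. Psmd14, the deubiquitinase that removes the ubiquitin chain from a bound protein, was the 1 gene called. It measured 107 and 101 CPM in SSMs from ndLN, 161 and 156 CPM in SSMs from tdLN, 161 and 157 CPM in MSMs from ndLN and 197 and 181 CPM in MSMs from tdLN. SSMs from tdLN thus overlapped with MSMs from ndLN, while both libraries of SSMs from ndLN lay below all others. Its log2 fold change in ndLN was -0.61 ± 0.12 (SE), with an adjusted p of 0.00983 by edgeR, the value nearest to the threshold among the 6 calls. The ATPases ranged from -0.54 (Psmc3) to -0.13 (Psmc1) and the non-ATPase subunits from -0.64 (Psmd7) to -0.16 (Psmd8) on the log2 scale. Of the chaperones of the regulatory particle, Psmd10 (gankyrin) had a log2 fold change of -0.65 ± 0.15 (SE), with an adjusted p of 0.0196 by edgeR, and Psmd5 and Psmd9 had 0.02 ± 0.15 and 0.17 ± 0.19. The 4 chaperones of the core were between -0.88 (Psmg4) and -0.23 (Psmg2), and none passed the test. Psmc3ip, which is no subunit, had -1.66 ± 0.53 with a mean below 100 reads.

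In tdLN the genes were again lower in SSMs, by a median log2 fold change of -0.29 over the 46 genes against 0.02 over all genes tested, and 40 of the 46 were negative. Both SSM libraries lay below both MSM libraries in 38 genes, against 27.1% of all genes tested and 35.7% of those with a mean above 100 reads. The 2 called genes, Psme1 and Psme2, are 4.55% of the 44 genes above the mean, against 3.53% of all genes tested and 7.44% of those above the mean, a share near the background. At an adjusted p-value under 0.05, 8 genes were lower, or 18.2% of the 44, against 6.53% of all genes tested and 13.8% of those above the mean, and 4 of these were alpha subunits (Psma1, Psma3, Psma5 and Psma6). Over both nodes together, 11 of the 46 genes fell and 0 rose, against 8.01% of all genes tested and 16.9% of those above the mean. They were Psme1, Psme2, Psma1, Psma3, Psma4, Psma5, Psmb1, Psmb7, Psmc3, Psmd10 and Psmd14, with log2 fold changes from -1.18 for Psme1 to -0.43 for Psmd14. The 11 calls became 3 without either SSM library from tdLN and between 4 and 5 without any 1 MSM library. The summed levels of several other cell type lists differed between SSMs and MSMs as well. The 8 innate-like lymphoid genes summed to 1211 to 1526 CPM in SSMs from ndLN and 522 to 593 CPM in SSMs from tdLN. In MSMs they summed to 32.5 to 69.7 CPM. The 7 plasma cell genes summed to 684 to 928 CPM in SSMs and 303 to 499 CPM in MSMs. In ndLN 2 of these 7 were higher in both SSM libraries than in both MSM libraries, and 1 was lower. The 7 NK and cytotoxic genes summed to 1855 to 3104 CPM in SSMs and 19.0 to 110 CPM in MSMs, and the 8 genes of dividing cells to 141 to 205 CPM and 436 to 596 CPM. The B cell list overlapped between SSMs and MSMs in both nodes, and the sum of the mast cell and basophil list did so in tdLN. There Kit measured 73.1 and 61.6 CPM in SSMs and 374 and 269 CPM in MSMs. All other genes of that list were higher in both SSM libraries from tdLN than in both MSM libraries from tdLN. The part of these lists in the differences of the proteasome genes was not tested.

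**Figure D4:**
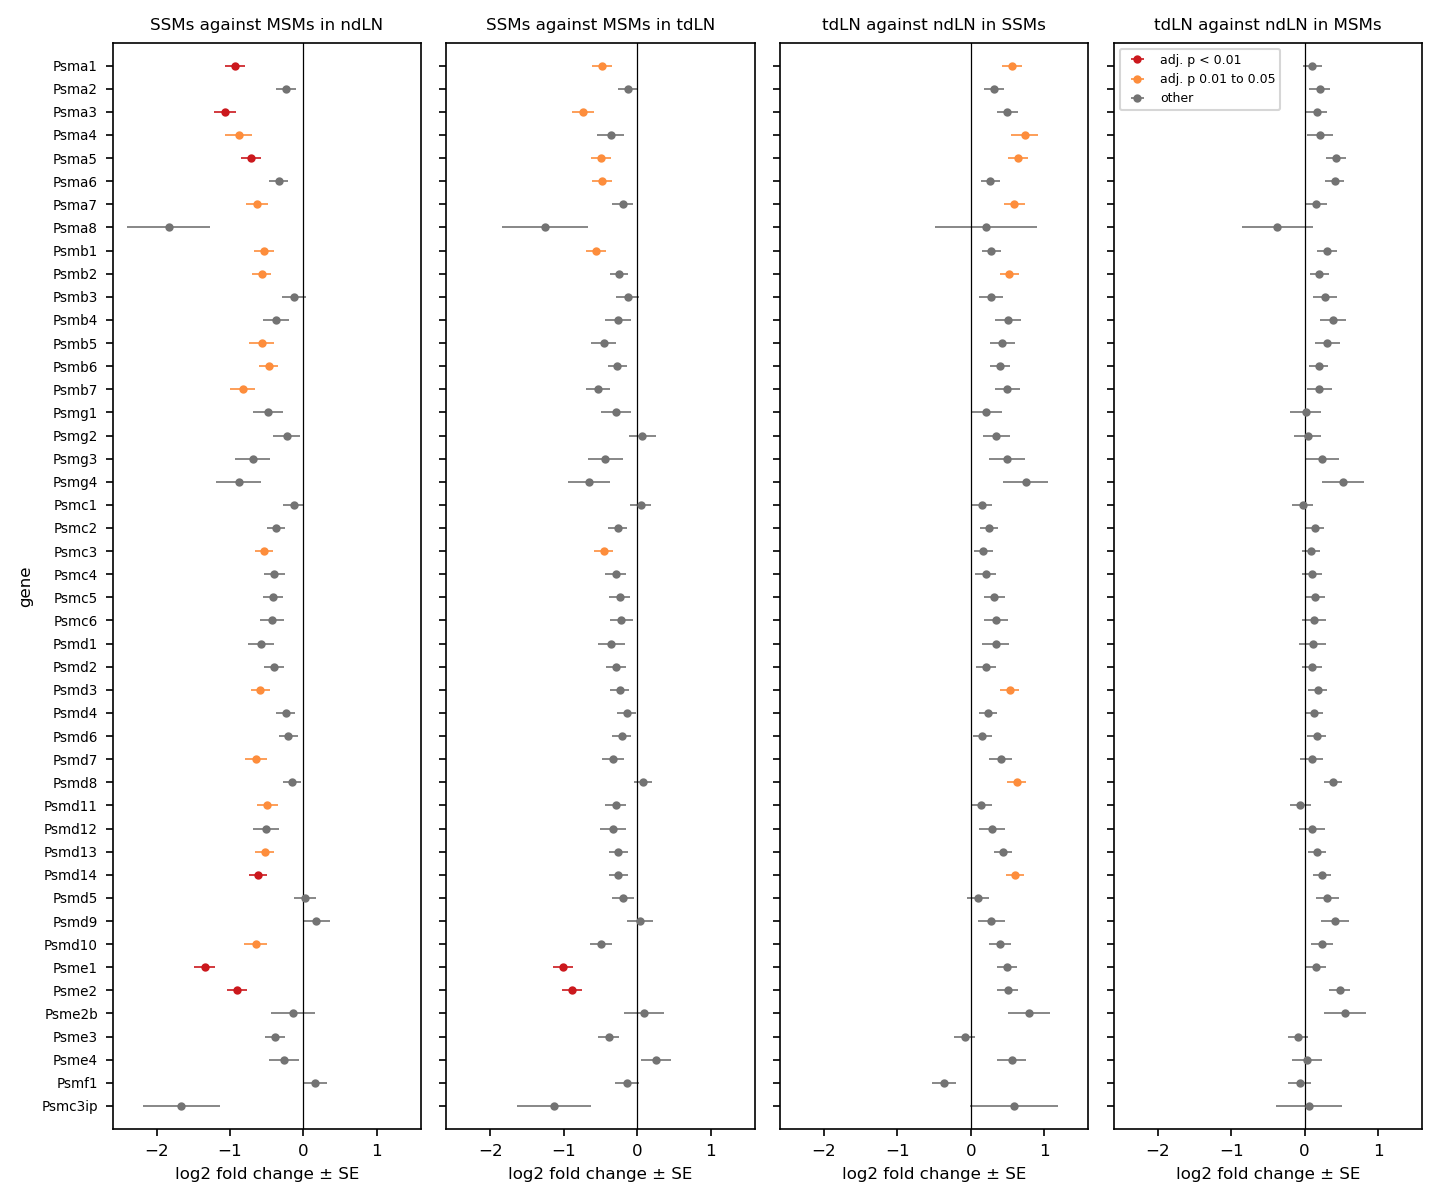
Log2 fold change of each of the 46 genes in the 4 comparisons, with the standard error of the edgeR fit; red points passed an adjusted p of 0.01, orange points one of 0.05, both with a mean above 100 reads per lane. Most points lie left of 0 in the comparisons of SSMs with MSMs and right of 0 in those of tdLN with ndLN, and red points occur only in the former (6 in ndLN and 2 in tdLN).

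In SSMs, the proteasome genes were higher in tdLN than in ndLN, though none of the 46 passed the stricter threshold. The median log2 fold change of the 46 genes was 0.37, against -0.04 over all genes tested. Over the genes with a mean above 100 reads it was 0.05, and 53.8% were positive. Of the 46 genes, 44 had a positive value (36 without TMM factors), and the exceptions were Psmf1 and Psme3. In 41 genes both libraries from tdLN lay above both from ndLN, against 25.6% of all genes tested and 37.4% of those with a mean above 100 reads. By edgeR's quasi-likelihood test 0 of the 46 genes were called at an adjusted p-value under 0.01, where 1.99% of all genes were called higher. In the same fit 21 were higher at an unadjusted p-value under 0.05 (12.0% of all genes), and a DESeq2 Wald test called 8 higher (5.33% of all genes). At an adjusted p-value under 0.05, 8 genes were higher, or 18.2% of the 44 above the mean, against 5.32% of all genes tested and 11.2% of those above the mean. In simulated counts of this comparison the test recovered 6 of 200 genes changed 2-fold and 190 of 200 changed 4-fold, and all 46 genes here differed by less than 2-fold. The simulated counts had the same set spread for every gene, which was not estimated from these data. The recovered shares are thus no measure of the test's power here. The median standard error of the 46 genes was 0.146.

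The 8 genes were 4 alpha subunits, 1 beta subunit and 3 non-ATPase subunits of the regulatory particle. Psma4 had the largest log2 fold change, 0.73 ± 0.18 (SE), followed by Psma5 with 0.65 ± 0.14, Psmd8 with 0.62 ± 0.13, Psmd14 with 0.60 ± 0.12, Psma7 with 0.59 ± 0.15 and Psma1 with 0.56 ± 0.14. Psmd3 and the beta subunit Psmb2 had 0.53 ± 0.13 and 0.52 ± 0.13, and the adjusted p-values by edgeR lay between 0.0239 (Psmd8) and 0.0466 (Psma7). Psmd8, a lid subunit of the regulatory particle, measured 167 and 150 CPM in SSMs from ndLN, 236 and 253 CPM in SSMs from tdLN, 175 and 179 CPM in MSMs from ndLN and 230 and 233 CPM in MSMs from tdLN. Its libraries were thus set apart by node in both subsets, and SSMs and MSMs of the same node lay close together. PA28 itself had log2 fold changes of 0.49 ± 0.14 for Psme1 and 0.50 ± 0.14 for Psme2 (SE), with adjusted p-values by edgeR of 0.0744 and 0.0677. The catalytic subunits Psmb5, Psmb6 and Psmb7 had 0.43 ± 0.17, 0.40 ± 0.13 and 0.50 ± 0.17, with adjusted p-values between 0.117 and 0.186 by edgeR. The medians by role were 0.53 for the alpha ring, 0.43 for the beta ring, 0.34 for the non-ATPase subunits and 0.23 for the ATPases. This comparison shares the SSM libraries from ndLN with that of SSMs and MSMs in ndLN, where they enter with the opposite sign. In the same SSM libraries the summed T cell list was at 2308 to 2535 CPM in ndLN and 1018 to 1170 CPM in tdLN. The innate-like lymphoid list was at 1211 to 1526 CPM in ndLN and 522 to 593 CPM in tdLN. The sinus macrophage list was higher in both libraries from tdLN. The part of these lists in the result was not tested.

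**Figure D5:**
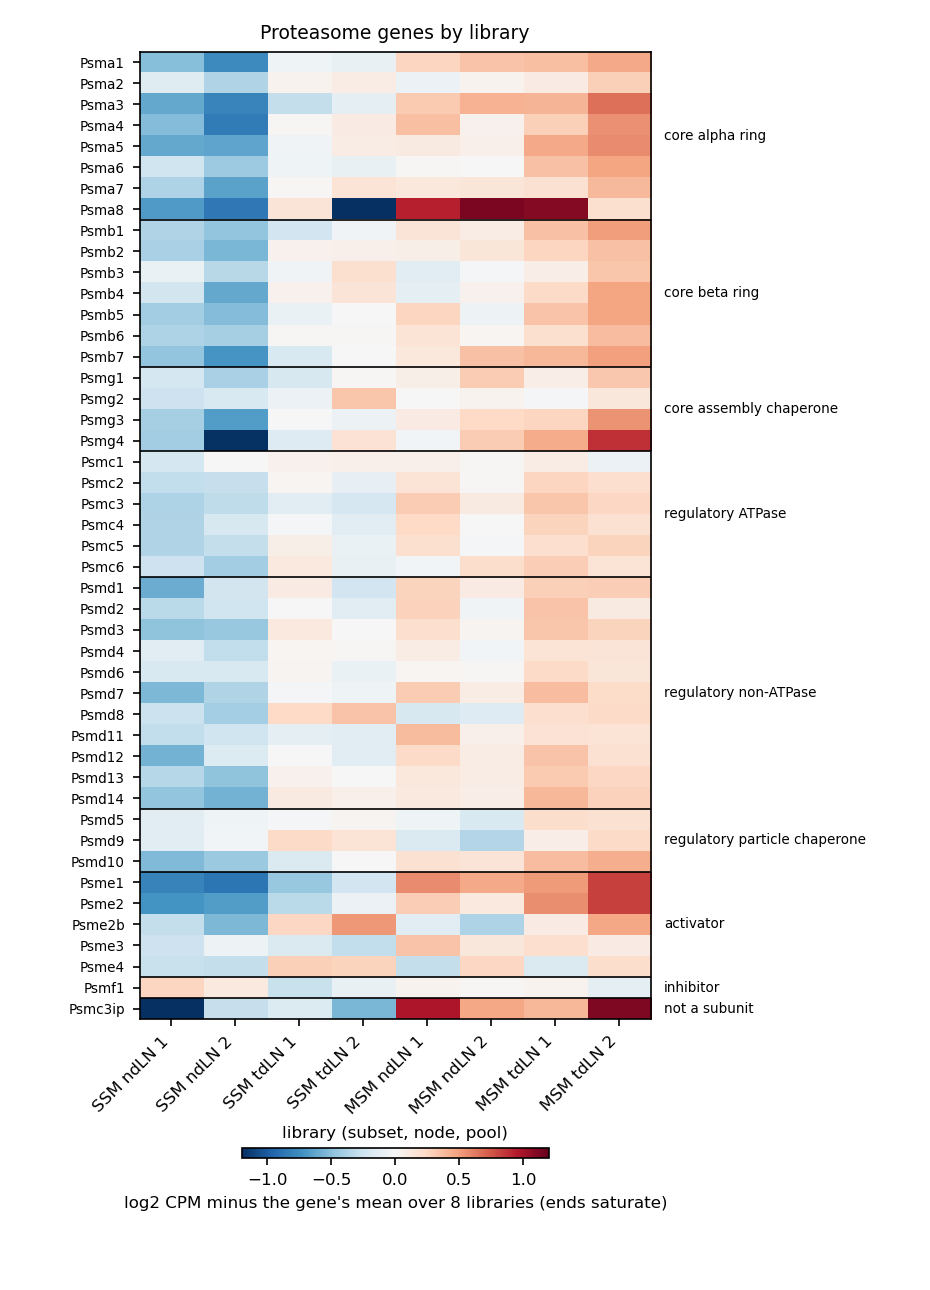
Heat map of the 46 genes (vertical axis, by role) in the 8 libraries (horizontal axis); colour is the log2 CPM minus the mean of the gene over the 8 libraries, and the scale saturates at its ends. The 2 columns of SSMs from ndLN are blue for most genes and the 2 of MSMs from tdLN red, while Psmf1 is red in both libraries of SSMs from ndLN.

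In MSMs most of the genes also had a higher level in tdLN. The log2 fold change between tdLN and ndLN was positive for 41 of the 46 genes with a median of 0.17, against 0.01 over all genes tested, and in 28 genes both libraries from tdLN lay above both from ndLN, against 20.4% of all genes tested and 25.0% of those with a mean above 100 reads. By edgeR's quasi-likelihood test 0 of the 46 genes were called, where 0.00474% of all genes were called higher, 4 were higher at an unadjusted p-value under 0.05 (5.56% of all genes), and a DESeq2 Wald test called 0 (0.830% of all genes). Psme2 had a log2 fold change of 0.48 ± 0.14 (SE) with an adjusted p of 0.241, and Psma5 one of 0.43 ± 0.14 with an adjusted p of 0.278 by edgeR. Psme1, by contrast, had 0.15 ± 0.14 and its libraries overlapped between the nodes.

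Whether the node mattered more in SSMs than in MSMs was tested by the interaction of subset and node. The interaction was positive for 39 of the 46 genes, with a median of 0.20 on the log2 scale against -0.01 over all genes tested. Over the genes with a mean above 100 reads the median was 0.08 and 56.6% were positive. The median of the proteasome genes exceeded that by 0.12. By edgeR's quasi-likelihood test 0 genes were called, where 0.0379% of all genes were, 1 had an unadjusted p-value under 0.05 (12.3% of all genes), and a DESeq2 Wald test called 0 (3.35% of all genes). That gene was Psma1, with 0.45 ± 0.19 (SE) and an adjusted p of 0.396. With TMM factors left out the median of all genes moved by -0.23 and that of the 46 genes became -0.04, with 17 of them positive. Their median relative to all genes was then 0.21 in place of 0.22. With pool as a term, the comparison of tdLN with ndLN over both subsets called 0 of the 46 genes by edgeR, where 1.23% of all genes were called higher, 25 were higher at an unadjusted p-value under 0.05 (11.7% of all genes), and the DESeq2 Wald test called 5 higher (4.35% of all genes). Its median log2 fold change was 0.29, and 43 of the 46 genes were positive.

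The constitutive catalytic subunits were also set against their inducible counterparts, as a ratio of counts in each library. Psmb9 takes the place of Psmb6 in the immunoproteasome, and their ratio was 0.803 and 0.604 in SSMs from ndLN, 0.966 and 1.18 in SSMs from tdLN, 2.73 and 2.73 in MSMs from ndLN and 2.67 and 3.07 in MSMs from tdLN. The ratio of Psmb8 to Psmb5 lay between 5.40 and 7.19 in SSMs and between 9.10 and 10.1 in MSMs, so both ratios were lower in all 4 SSM libraries. The ratio of Psmb10 to Psmb7 was reversed, between 3.95 and 4.86 in SSMs and between 1.93 and 2.49 in MSMs. On the log2 scale SSMs differed from MSMs by -1.70 for Psmb9 to Psmb6, -0.63 for Psmb8 to Psmb5 and 1.01 for Psmb10 to Psmb7. An exact two-sided permutation test of 4 against 4 libraries gave p = 0.0286 for each, the smallest it allows, and 0.0571 after Benjamini-Hochberg adjustment over the 6 ratio tests. With only these 3 ratios at the smallest p, the adjusted value could not be lower. The test permuted the libraries without regard to node or pool. Between tdLN and ndLN the ratios differed by 0.16 to 0.34 on the log2 scale, with exact permutation p-values between 0.543 and 0.571. That test of 4 against 4 libraries leaves the subset aside. Within SSMs both libraries from tdLN exceeded both from ndLN in all 3 ratios. Psmb8 to Psmb5 was at 5.76 and 5.40 in ndLN and 6.57 and 7.19 in tdLN. Psmb10 to Psmb7 was at 4.53 and 3.95 in ndLN and 4.86 and 4.70 in tdLN. Within MSMs the nodes overlapped in all 3. Groups of 2 against 2 libraries are too few for a permutation test within a subset.

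Of the other genes of the pathway, the immunoproteasome subunits Psmb8 and Psmb9 were lower in SSMs in both nodes. Their log2 fold changes were -1.34 and -2.43 in ndLN and -0.95 and -1.70 in tdLN, with adjusted p-values by edgeR between 2.10e-04 and 0.00474. Psmb10 was not called in either node, with 0.19 ± 0.18 (SE) and 0.48 ± 0.18. Among the 5 measured subunits and assembly factors with other names, Pomp, the maturation factor of the core, was lower in SSMs from ndLN with a log2 fold change of -1.51 and an adjusted p of 8.10e-04 by edgeR, and Akirin2, which takes part in the nuclear import of proteasomes, was higher with 1.44 and 0.00128. A list of 6 genes was drawn up around NFE2L1, through which cells raise proteasome genes when proteasome activity is short. Nfe2l1 itself was not called in ndLN, with -0.40 ± 0.21 (SE). Nfe2l2, the gene of a related factor that was kept on the same list, fell by 0.89 in ndLN. Usp14, 1 of the 2 deubiquitinases that bind the proteasome, fell by 0.82, and Lap3, 1 of the 7 peptidases of the cytosol, fell by 1.21 on the log2 scale, with adjusted p-values by edgeR of 0.00124, 0.00434 and 0.00254 for the 3 genes. In tdLN the difference of Nfe2l2 had the opposite sign, 0.45 ± 0.11 (SE) with an adjusted p of 0.0332 by edgeR. Its interaction of subset and node was 1.34 ± 0.16 with an adjusted p of 0.0186 by edgeR. Neither passed the threshold of 0.01. Of all 37 genes measured, edgeR called 7 in ndLN and 2 in tdLN between SSMs and MSMs. Over all 21085 genes tested it called 2546 and 1833, or 25.5% and 18.3% of those with a mean above 100 reads. Among the 9 shuttle factors, which carry tagged proteins to the proteasome, edgeR called 0 in ndLN, where 3 had an unadjusted p-value under 0.05 and DESeq2 called 1. Among the 6 genes of ubiquitin and its activation edgeR called 0 in ndLN, where 1 had an unadjusted p-value under 0.05 and DESeq2 called 0. Over all genes DESeq2 called 3690 in ndLN. Between tdLN and ndLN edgeR called 0 of the 37 genes in either subset, while 10 in SSMs and 7 in MSMs had an unadjusted p-value under 0.05 and DESeq2 called 6 and 1. Over all genes edgeR called 640 and 5, and DESeq2 1973 and 503. The 10 genes in SSMs were all higher in tdLN, whereas those in MSMs were all lower in tdLN except Thop1. At that unadjusted p-value 12.0% of all genes were higher in tdLN in SSMs and 5.56% in MSMs. These shares leave lower genes out, so they are no background for the lower genes in MSMs.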

How the data were processed

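RNA was measured in 16 samples, which are 8 libraries on lanes 3 and 4. Per the labels, libraries were made with the SMART-Seq v4 kit. The submitters' processing notes name bcl2fastq 2.20.0.422, Trimmomatic 0.36, STAR 2.5.3a and GRCm38. The authors deposited raw read counts per gene, neither normalized nor filtered, and the counting mode and strand setting are not given in the sources used here. All columns were mapped to samples and 0 were left unused. Symbols, lengths and gene coordinates came from GENCODE M21 on GRCm38, which matched 55240 IDs, and promoters from RefSeq. The rule matched 47 symbols, and Psmb11 was left out for too few counts.

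The lanes of a library were summed. Libraries 1 and 2 of a group differed well beyond sampling noise, with a chi-square per degree of freedom of 52.8 to 95.6. The labels number the node samples 1 and 2 and name no pool. The label of library 1 of SSMs from tdLN bears no such number, so its number was inferred. These numbers were taken as pools, although the study's methods count more pools than the 2 libraries of a group, so that libraries with the same number may not share mice, and p-values measure the spread between these samples. The 21085 genes with 10 or more counts that were detected in 2 or more samples were tested, with TMM factors between 0.902 and 1.15, by edgeR 4.0.16 (quasi-likelihood, R 4.3.3) on group and pool over all 8 libraries, with Benjamini-Hochberg adjustment. Calls required an adjusted p-value below 0.01 together with more than 100 normalized counts per lane on average, and 44 of the 46 genes passed that mean, a filter on the mean over all samples. Pool is in the model because the study's methods state that each pool of mice gave all 4 cell samples. As a check, deviations from the group means of libraries with the same pool number were correlated over 10000 genes by between -0.150 and 0.164 across the 6 pairs of groups. Ratios were tested by exact permutation of libraries. The test was run on simulated data with a spread set in advance, where 200 genes were changed, and made 0 false calls. DESeq2 1.42.0 served for an alternative, and exact tests, ratios and plots were made with scipy 1.17.1, pandas 2.3.3, numpy 2.4.6 and matplotlib 3.10.9.

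The alternatives were no pool term, a DESeq2 Wald test, RLE size factors, library totals without TMM factors, no gene filter, a Holm adjustment, an adjusted p-value under 0.05, each lane as a sample, only the groups compared, and each library left out. The genes and lists were chosen with earlier results of these data known. Values in every library are given for the catalytic subunits, Psme1 to Psme4, Psmf1 and up to 5 called genes of each comparison with the largest change, and no gene lay under 3 counts in all libraries of a group. Psmd14 and Psmd8, the genes named as extremes of a range and those past an adjusted p-value of 0.05 were named after their values were seen. Windows of 50 bases found in transcripts of other genes mark those whose reads could be shared. The 3 counts of the detection floor cover counting error alone.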

Additional observations from a re-analysis of the deposited data

Results flagged for a closer look

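For 2 proteasome genes the difference between SSMs and MSMs had opposite signs in the nodes in both pools. For Psme2b it was 0.11 on the log2 scale in tdLN and -0.16 in ndLN, which differ by 0.26. For Psmd8 it was 0.08 in tdLN and -0.16 in ndLN, which differ by 0.24. In the edgeR fit the interaction of subset and node was 0.24 ± 0.40 (SE) for Psme2b and 0.24 ± 0.18 for Psmd8, with adjusted p-values of 0.942 and 0.719, so neither difference passed the test.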

How the results depend on the processing

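The counts below are of proteasome genes called, and every alternative kept the sign of the median in all comparisons but one, the interaction. Against 6 (SSMs and MSMs in ndLN), 2 (the same in tdLN), 0 (nodes in SSMs), 0 (nodes in MSMs), 0 (interaction), 11 (SSMs and MSMs over both nodes) and 0 (nodes over both subsets), each lane taken as a sample, which counts technical repeats as replicates, gave 35, 27, 32, 13, 6, 35 and 34. The DESeq2 Wald test gave 16 in ndLN, 8 in tdLN, 8 between nodes in SSMs, 23 over both nodes and 5 over both subsets, and an adjusted p-value under 0.05 gave 19, 8, 8, 29 and 4. Calls over all genes also rose. The main test called 2546, 1833, 640, 5, 8, 3384 and 416 of them, and lanes as samples 6253, 5414, 4736, 2413, 2670, 6730 and 4655. The Wald test called 3690, 3026, 1973, 4454 and 1855 of all genes, and the threshold of 0.05 gave 3885, 3023, 1832, 4723 and 1374. Holm adjustment gave 0 everywhere. Only the groups compared gave 0 in ndLN, with 4 libraries in the fit, and 3 in tdLN. RLE size factors gave 4 in ndLN and 10 over both nodes, as did no gene filter. Without TMM factors, 2 genes were called in ndLN and 4 over both nodes. That scaling moved the median of all genes by 0.27 in ndLN and by -0.20 between nodes in SSMs, and that of the 46 genes to -0.21 in ndLN, -0.23 over both nodes, 0.16 between nodes in SSMs and -0.0354 for the interaction. Relative to all genes the medians were -0.57 against -0.59 in ndLN, 0.40 against 0.41 in SSMs and 0.21 against 0.22 for the interaction. In the no-TMM fit 12 of the 46 genes were positive in ndLN in place of 3, and Psme4 there was at 0.0209.

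Without the replicate block of pool, 11 genes were called in ndLN, 3 in tdLN, 17 over both nodes and 1 between nodes over both subsets, and the calls of the other comparisons stayed at 0. Leaving out 1 library at a time gave 1 to 5 calls in ndLN, 0 to 3 in tdLN and 3 to 12 over both nodes, with 0 in the others. Median log2 fold changes of the 46 genes ran from -0.55 to -0.47 in ndLN and from 0.37 to 0.42 between nodes in SSMs. Small differences that changed sign were Psmf1 in tdLN (0.0048 without SSM tdLN 1, range -0.28 to 0.0048), Psme3 between nodes in SSMs (-0.24 to 0.0818, the latter without SSM ndLN 2), and, between nodes in MSMs, Psme4 (-0.00047 with RLE, -0.17 without MSM ndLN 1, -0.0857 without MSM tdLN 2, range -0.17 to 0.26), Psme3 (-0.18 to 0.0080, the latter without MSM ndLN 1) and Psmf1 (-0.15 to 0.0118, the latter without MSM tdLN 2). The node difference of the ratio of Psmb9 to Psmb6 ran from -0.0543 (without SSM ndLN 2) to 0.67 and that of Psmb10 to Psmb7 from -0.0361 (without MSM ndLN 2) to 0.37, with -0.0047 without SSM tdLN 1. Depth limited only the rarest of these genes, such as Psma8. The cause of these shifts was not tested.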
